A study of Mus musculus with 15 samples.

Results

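The 10 genes described here, Apoe, Trem2, Tyrobp, Gpnmb, Spp1, Lpl, Cst7, Clec7a, Itgax and Axl, are known from microglia and macrophages that have taken up lipid or cell debris. They were chosen by name, as the genes whose identifiers carry these symbols in GENCODE, and all 10 were found among the 46679 genes measured and had enough counts to be tested. RNA came from 15 C57BL/6 mice in 5 groups of 3, naïve brain and end-stage tumors of the lines CT2A, GL261, 005 and Mut3, from mice that were 6 to 8 weeks old at implantation. CT2A (p53 wild type) and GL261 (K-ras and p53 mutant) are methylcholanthrene-induced lines, whereas 005 (H-ras and AKT activation with p53+/-) and Mut3 (NF1 and p53 inactivated) came from genetic mouse models. Mice received 100000 cells of CT2A, GL261 or 005 GFP-Fluc lines, which carry a fluorescent and a luciferase marker, or 500000 Mut3 cells, and naïve brain carried no tumor. Each model is a single line, the mice were perfused before the tissue was taken, and the recipients were immunocompetent.

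TREM2 is a surface receptor of myeloid cells that binds lipids and lipoproteins, and it signals through the adaptor TYROBP. Microglia that meet dying cells, amyloid or myelin debris are known to raise Trem2-dependent genes, among them Apoe, Lpl, Cst7, Clec7a, Itgax, Spp1, Axl and Gpnmb, while homeostatic genes such as P2ry12 and Tmem119 fall. Many of these genes have other sources in the brain as well: astrocytes secrete much of the Apoe, neurons express Lpl, and tumor cells of several kinds express Spp1 and Gpnmb. In bulk tissue a larger number of cells of a type and more RNA per cell cannot be told apart, and neither can the cells that held the RNA.

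The 3 naïve brains had total counts of 3105119 to 5161132 and the tumors of 5380395 to 13130158. A floor of 3 counts thus corresponded to 0.228 to 0.966 CPM (counts relative to the library total) before scaling by TMM. All other CPM values were scaled by TMM, with factors of 0.8789 to 1.298, so the floor is not on their scale. This floor covers counting error only. Of 12 pan-myeloid markers such as Aif1, Cd68 and C1qa, 11 were upregulated over naïve brain in each of CT2A, GL261 and 005, whereas 0 were up and 2 were down in Mut3, with Csf1r falling by 1.15 on the log2 scale. Their summed level was 375.4 to 520.3 CPM in naïve brain. It was 1377 to 1745 in CT2A, 2675 to 4727 in GL261, 2076 to 7186 in 005 and 259.1 to 704.8 in Mut3, so that the Mut3 range overlapped that of naïve brain. The homeostatic microglia genes P2ry12, Tmem119 and Cx3cr1 were down in Mut3 (log2 fold changes of −3.61, −2.20 and −2.37), and 7 of the 11 genes of that list were down there. Of the same 11, 4 were down in CT2A, 2 were up in GL261 and 0 were called in 005. By the calls defined below, 19% (CT2A), 14.6% (GL261), 11.6% (005) and 17.9% (Mut3) of all genes were up. Those down were 20.2% in CT2A and 19.8% in Mut3. 005 replicate 3 stood apart. Its neuron markers summed to 3032 CPM and its oligodendrocyte markers to 4590 CPM, against at most 523.3 and 601.9 CPM in the other two 005 tumors, and mitochondrial genes took 17.8% of its counts. That share was 14.97% to 24.0% in naïve brain and 3.48% to 11.3% in the other tumors. It thus moved with the contrast between tumor and naïve brain, and its part in the changes below was not tested. Values without it are given where they changed a result.

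**Figure D1:**
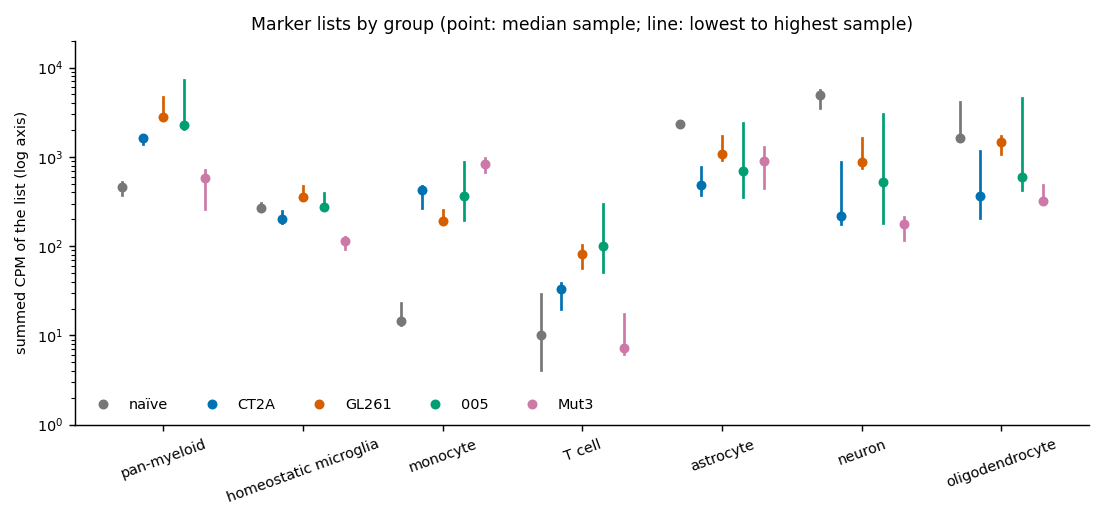
Summed CPM (log axis) of the marker lists of myeloid and other cells in each group. Points are the median of 3 samples and lines run from the lowest to the highest sample. The pan-myeloid sums of CT2A, GL261 and 005 lay above those of naïve brain, and those of Mut3 overlapped them.

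Compared with naïve brain, 8 of the 10 genes were upregulated in GL261 and 8 in 005, 7 were upregulated and 1 was downregulated in CT2A, and 2 were upregulated in Mut3. A gene was called at a Benjamini-Hochberg adjusted p under 0.05 over 17481 genes in edgeR's quasi-likelihood test and a change of at least 2-fold. Of all genes tested, 14.6% were called up and 7.77% down in GL261, 11.6% up and 1.05% down in 005, 19% up and 20.2% down in CT2A, and 17.9% up and 19.8% down in Mut3. Over the 10 genes the log2 fold change had a median of 2.45 in GL261, 2.49 in 005, 1.91 in CT2A and 0.45 in Mut3, against −0.08, 0.01, −0.04 and 0.11 over all genes tested. Gpnmb and Cst7 were up in all 4 tumors, Trem2 in GL261 and 005, and Apoe in none. All 10 genes differed among the 5 groups, where 52.1% of all genes did. Without 005 replicate 3 the same 8 genes were up in 005 and Lpl was down, at a log2 fold change of −1.67, where 17.6% of 18300 genes tested were called up and 18.1% down. A fit of the naïve and 005 samples alone called 2 of the 10 genes, Cst7 and Clec7a, and 222 of all genes, against 2217 genes in the fit to all samples. On log2(TPM + 1), a scale that flattens low genes, several calls were lost. The lost calls were Tyrobp (0.57), Gpnmb (0.46), Clec7a (0.51), Itgax (0.12) and Axl (0.58) in CT2A, and Trem2 (0.86), Spp1 (1.12) and Itgax (0.61) in GL261. Those of Trem2 (1.05) and Gpnmb (0.99) in 005 and of Cst7 (0.58) in Mut3 were lost as well.

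**Figure D2:**
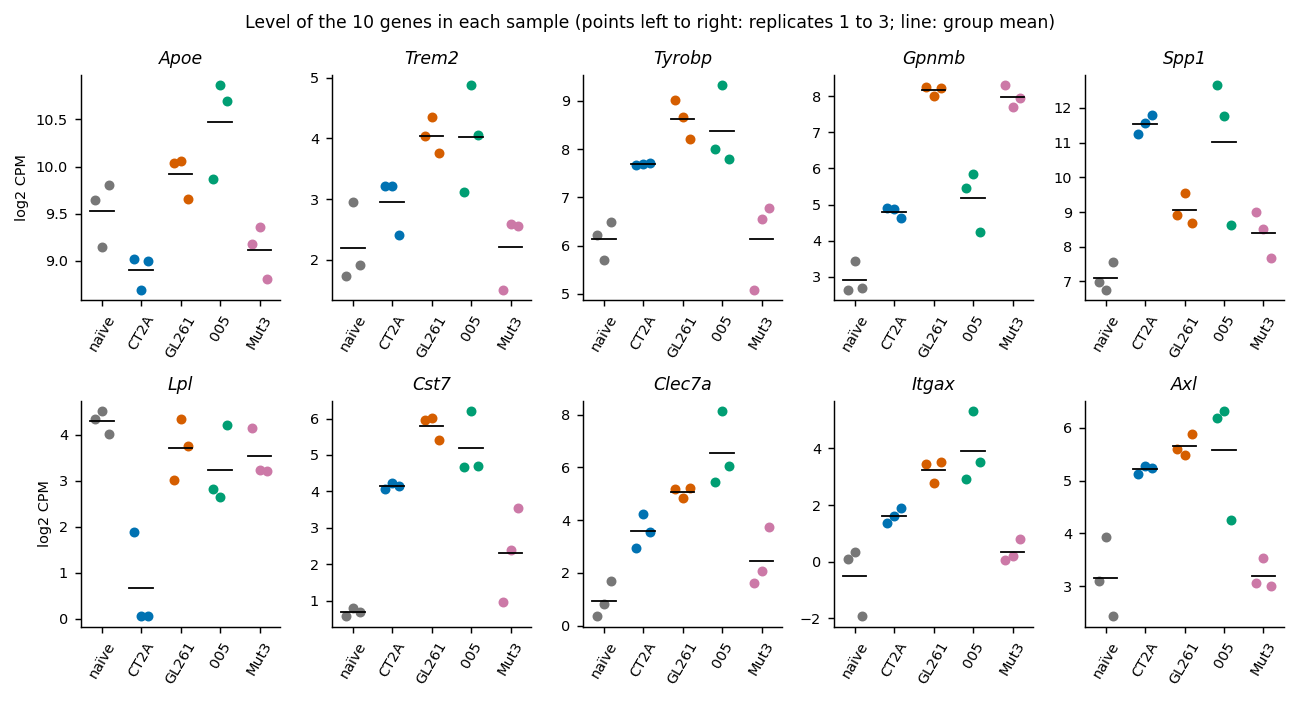
Log2 CPM (prior count 2) of each gene in every sample, with 3 points per group in the order of replicates 1 to 3 and a line at the group mean. Gpnmb was high in GL261 and Mut3, Spp1 in CT2A and 2 of the 3 005 tumors, and Lpl was lowest in CT2A.

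**Figure D3:**
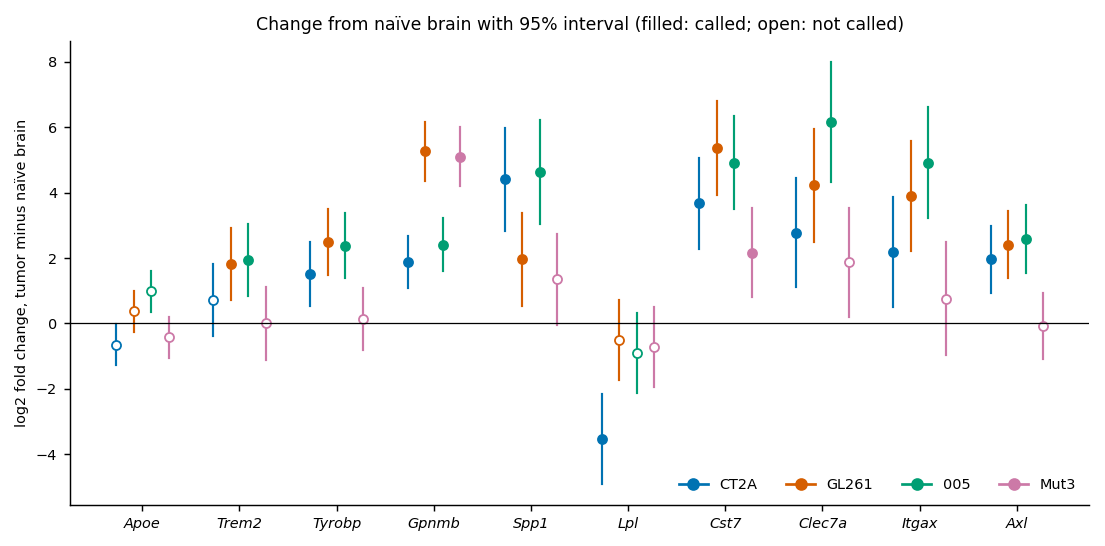
Log2 fold change of each gene from naïve brain in the 4 tumors, with its 95% interval from edgeR. Filled points were called. The points of Mut3 lay near 0 for Trem2, Tyrobp and Axl, and at 5.10 for Gpnmb.

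RefSeq (GRCm38.p6) gave 12 promoter windows, from 250 bases before the start to 50 after it, for 8 of the 10 genes, all but Tyrobp and Lpl. The windows of Cst7, Trem2, Itgax and Gpnmb held the AP-1 motif TGANTCA, which 7.81% of 32851 mouse windows held. Of the windows of Spp1, 1 held the PU.1 motif GAGGAAGT, which 3.2% of mouse windows held, and another did not. The E-box CACGTG, found in 7.15% of windows, was in none of the 12. Both strands were searched, on which TGANTCA and CACGTG read the same, no match overlapped another, and a match describes the letters alone. The AP-1 match began 6 bases before the start in Cst7, 9 before it in Trem2, 56 before it in Itgax and at base 9 after it in Gpnmb. The PU.1 match began 113 bases before the start of Spp1. These 5 are shown, from 130 bases before the start to 20 after it, because the values below separate Gpnmb and Spp1 from the other three, with the matching letters in capitals and each read 5′ to 3′ along the gene.
Cst7 (chr2:150570285-150570434, + strand): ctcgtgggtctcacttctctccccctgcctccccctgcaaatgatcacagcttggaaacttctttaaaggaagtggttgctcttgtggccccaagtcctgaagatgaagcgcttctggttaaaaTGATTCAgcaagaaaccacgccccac
Trem2 (chr17:48346271-48346420, + strand): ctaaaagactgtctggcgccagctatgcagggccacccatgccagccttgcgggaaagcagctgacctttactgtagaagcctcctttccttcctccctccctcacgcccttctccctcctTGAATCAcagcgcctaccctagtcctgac
Itgax (chr7:128129420-128129569, + strand): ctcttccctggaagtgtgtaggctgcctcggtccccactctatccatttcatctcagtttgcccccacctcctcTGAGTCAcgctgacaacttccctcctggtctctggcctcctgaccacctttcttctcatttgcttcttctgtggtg
Gpnmb (chr6:49036388-49036537, + strand): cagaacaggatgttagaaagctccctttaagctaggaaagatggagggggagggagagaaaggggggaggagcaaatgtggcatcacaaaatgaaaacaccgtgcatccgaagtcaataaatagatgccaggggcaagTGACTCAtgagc
Spp1 (chr5:104434981-104435130, + strand): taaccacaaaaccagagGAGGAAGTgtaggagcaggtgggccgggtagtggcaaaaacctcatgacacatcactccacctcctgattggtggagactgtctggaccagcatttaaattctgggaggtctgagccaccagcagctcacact

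Trem2 (chr17:48346401-48354147 on GRCm38, + strand) was a low gene in every group. Its level was 3.06, 7.47 and 3.52 CPM in the 3 naïve brains, 9.04, 9.0 and 5.04 in CT2A, 16.2, 20 and 13.2 in GL261, 8.45, 29.2 and 16.4 in 005, and 2.57, 5.79 and 5.63 in Mut3. On CPM all GL261 and 005 tumors were above all naïve brains, and Mut3 and CT2A overlapped them. In TPM GL261 and 005 overlapped them as well, with lowest values of 5.66 and 3.32 against 7.18 in naïve replicate 2. Trem2 rose 3.52-fold in GL261 (log2 1.81 ± 0.51 SE, adjusted p = 0.0226) and 3.85-fold in 005 (1.94 ± 0.51, adjusted p = 0.0233). In CT2A the log2 change was 0.72 (95% interval −0.37 to 1.81) and in Mut3 the interval ran from −1.11 to 1.10. The call in GL261 was lost without naïve replicate 1 (1.58), naïve replicate 3 (1.66) or GL261 replicate 2 (1.65). That in 005 was lost without naïve replicate 1 (1.72), naïve replicate 3 (1.79) or 005 replicate 2 (1.42), and with library size in place of TMM (1.80).

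Tyrobp (chr7:30413760-30417585, + strand), whose cytoplasmic tail passes on the signal of Trem2 and of other myeloid receptors, was far more abundant. Per length, its mean was 284 TPM against 6.94 TPM for Trem2 in GL261, and 87.8 against 3.82 TPM in naïve brain. It measured 74.3, 52.1 and 89.5 CPM in naïve brain, 203.5, 205.2 and 209.8 in CT2A, 515.5, 404.9 and 297.2 in GL261, 257.3, 645.5 and 222.4 in 005, and 33.6, 93.0 and 109.9 in Mut3. CT2A varied little among its mice, at 206.2 ± 3.26 CPM (SD, n = 3), and each of the tumors of CT2A, GL261 and 005 was above all naïve brains. The rise was 2.87-fold in CT2A (log2 1.52 ± 0.46, adjusted p = 0.0169), 5.64-fold in GL261 (2.50 ± 0.47, adjusted p = 0.00256) and 5.21-fold in 005 (2.38 ± 0.47, adjusted p = 0.00486). In Mut3 the log2 change was 0.13, with an interval of −0.82 to 1.09, and on log2(TPM + 1) it was −0.80.

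Clec7a (chr6:129461591-129472779, − strand) encodes a receptor for fungal glucans that signals through Syk, and GENCODE M21 lists it as a polymorphic pseudogene. It was near the floor in naïve brain, at 1.02, 1.49 and 2.97 CPM, or 5.0, 5.7 and 10.9 counts. It measured 7.45, 18.5 and 11.4 CPM in CT2A, 36.3, 28.1 and 36.6 in GL261, 42.8, 279.8 and 65.9 in 005, and 2.80, 3.90 and 13 in Mut3. Replicate 2 was by far the highest of the 005 tumors, and on CPM every 005 tumor was above every GL261 tumor. In TPM 005 replicate 1 (2.73) was below GL261 replicate 3 (2.89). Clec7a rose 71.6-fold in 005 (log2 6.16 ± 0.86, adjusted p = 0.00177), the largest change of the 10 genes, 18.6-fold in GL261 (4.22 ± 0.81, adjusted p = 0.00278) and 6.87-fold in CT2A (2.78 ± 0.79, adjusted p = 0.0127). Without 005 replicate 2 the log2 change in 005 was 4.92, and without naïve replicate 1 the change in CT2A, 2.48, was not called. In Mut3 it was 1.88 (adjusted p = 0.0672), and it was called without 005 replicate 1 (1.88), 005 replicate 2 (1.88) or Mut3 replicate 1 (2.29) and by DESeq2 (1.91).

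Itgax (chr7:128129547-128150657, + strand) encodes an integrin α chain of dendritic cells and activated microglia, and per length it was the lowest of the genes in naïve brain and Mut3 and the second lowest, after Lpl, in the other tumors. Naïve brain held 4.4, 3.9 and 0.0 estimated counts, at 0.816, 0.996 and 0 CPM, so that fold changes against it rest on few reads. CT2A measured 2.32, 2.79 and 3.49 CPM, GL261 10.8, 6.63 and 11.2, 005 7.31, 39.7 and 11.1, and Mut3 0.783, 0.881 and 1.5. CT2A, GL261 and 005 did not overlap naïve brain, and Mut3 did. The fitted rise was 30.3-fold in 005 (log2 4.92 ± 0.80, adjusted p = 0.00199), 14.9-fold in GL261 (3.90 ± 0.78, adjusted p = 0.00376) and 4.51-fold in CT2A (2.17 ± 0.79, adjusted p = 0.0385). The call in CT2A was lost without naïve replicate 1 (2.46), naïve replicate 3 (1.66), CT2A replicate 2 (2.29), CT2A replicate 3 (2.02) or GL261 replicate 3 (2.14), and with library size in place of TMM (1.96). In 005 the log2 change was 3.86 without replicate 2. In Mut3 it was 0.76 (interval −0.98 to 2.50), and −0.02 on log2(TPM + 1).

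Axl (chr7:25757273-25788705, − strand) encodes a receptor tyrosine kinase that recognizes dying cells through the bridging ligand Gas6. Its levels were 8.36, 14.9 and 5.14 CPM in naïve brain, 34.7, 38.3 and 37.6 in CT2A, 47.9, 44.8 and 59.0 in GL261, 72.3, 79.3 and 18.8 in 005, and 8.06, 11.3 and 7.74 in Mut3. On CPM all CT2A, GL261 and 005 tumors were above all naïve brains, with 005 replicate 3 the lowest of them. In TPM naïve replicate 2 (2.2) was above 005 replicate 3 (1.92) and CT2A replicates 2 and 3 (2.01 and 1.98). Axl rose 3.88-fold in CT2A (log2 1.96 ± 0.48, adjusted p = 0.00628), 5.32-fold in GL261 (2.41 ± 0.48, adjusted p = 0.00374) and 5.97-fold in 005 (2.58 ± 0.49, adjusted p = 0.00385), and these calls held when any library was left out. In Mut3 the log2 change was −0.07 (interval −1.08 to 0.93).

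Apoe (chr7:19696109-19699188, − strand), a lipid carrier and a ligand of TREM2, had the highest TPM of the 10 genes in 4 of the 5 groups. It measured 800.1, 568.2 and 891.5 CPM in naïve brain, 519.9, 413.1 and 510.6 in CT2A, 1052, 1067 and 805.5 in GL261, 930.8, 1866 and 1651 in 005, and 580.9, 655.8 and 448.8 in Mut3. On CPM the 3 CT2A samples were below all naïve samples and the 3 005 samples above them. In TPM 005 replicate 1, at 505.8, was below all naïve samples (736.7 to 760.1). No change from naïve brain was called. The log2 change was −0.65 in CT2A (interval −1.27 to −0.02, adjusted p = 0.0877), 0.37 in GL261 (−0.25 to 0.99), 0.98 in 005 (0.35 to 1.60, adjusted p = 0.0416 at under 2-fold) and −0.42 in Mut3 (−1.05 to 0.20). Without 005 replicate 1 the change in 005 was 1.23 and called, and at 1.04 it was called without CT2A replicate 2, GL261 replicate 1, Mut3 replicate 1 or Mut3 replicate 3. On log2(TPM + 1) the change was −1.61 in CT2A and −1.23 in Mut3, both called, and in GL261 it turned to −0.42, not called. Astrocyte markers moved as well: their sum was 2305 to 2404 CPM in naïve brain, 376.5 to 773.6 in CT2A, 930.7 to 1695 in GL261, 356.5 to 2382 in 005 and 446.3 to 1278 in Mut3. Their part in the Apoe levels was not tested.

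Lpl (chr8:68880491-68907448, + strand), which releases fatty acids from lipoprotein triglycerides, was the only one of the 10 genes called down in a tumor. It measured 20, 22.7 and 16.0 CPM in naïve brain, 3.42, 0.776 and 0.775 in CT2A, 7.88, 20 and 13.3 in GL261, 6.80, 6.04 and 18.2 in 005, and 17.5, 9.19 and 9.06 in Mut3. The CT2A values, which rest on 28.2, 4.6 and 6.3 counts, were below those of every other sample. In CT2A Lpl fell by 3.53 on the log2 scale (SE 0.64, adjusted p = 0.00148), and the fall ranged from −4.62 to −3.09 as libraries were left out. The change was −0.50 in GL261 (interval −1.72 to 0.71), −0.91 in 005 (−2.13 to 0.31) and −0.72 in Mut3 (−1.93 to 0.50). In 005 the high sample was replicate 3, and without it Lpl fell by 1.67 (adjusted p = 0.0341). Neuron markers, which summed to 3500 to 5646 CPM in naïve brain, were 178.2 to 879.5 in CT2A and 117.6 to 211.3 in Mut3. Every Mut3 sample had more Lpl than every CT2A sample, the neuron sums of these lines overlapped, and the part of neurons in the Lpl level was not tested.

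Spp1 (chr5:104435118-104441050, + strand) encodes osteopontin, a secreted ligand of Cd44 and of integrins, and it overlaps an unconfirmed transcript, Gm42793, on the same strand. Its level was 126.9, 107.6 and 186.9 CPM in naïve brain, 2432, 3012 and 3522 in CT2A, 484.8, 742.8 and 412.2 in GL261, 6495, 3474 and 392.8 in 005, and 514.3, 361.1 and 203.6 in Mut3. On CPM all tumors were above all naïve brains, and 005 ranged from a level like that of GL261, in replicate 3, to the highest of the series. Mut3 replicate 3, at 27.2 TPM, was below all naïve brains on that scale (28.2 to 36.2). In TPM, which allows genes to be compared, Spp1 was first of the 10 genes in CT2A (358 TPM against 250.3 for Apoe) and second in 005. The rise was 21.3-fold in CT2A (log2 4.41 ± 0.74, adjusted p = 0.000887) and 24.6-fold in 005 (4.62 ± 0.74, adjusted p = 0.00197), and without 005 replicate 3 the latter was 5.08. In GL261 it was 3.89-fold (1.96 ± 0.66, adjusted p = 0.0454), and this call was lost in 10 of 15 fits that left out 1 library, at log2 changes of 1.68 to 2.23. These were the fits without any naïve, CT2A or GL261 library and that without Mut3 replicate 2. In Mut3 the log2 change was 1.36 (interval −0.04 to 2.75, adjusted p = 0.11), and it was called without 005 replicate 3 (1.34).

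Gpnmb (chr6:49036546-49070929, + strand), a lysosomal and surface glycoprotein of lipid-laden macrophages and of pigment cells, had a pattern of its own. Its level was 5.92, 10.5 and 6.22 CPM in naïve brain, 29.4, 28.9 and 24.4 in CT2A, 306.9, 259.1 and 300.7 in GL261, 43.6, 57.3 and 18.7 in 005, and 320.1, 210.0 and 247.1 in Mut3. The 6 samples of GL261 and Mut3 were all above the 9 others, with no overlap. Gpnmb rose 38.3-fold in GL261 (log2 5.26 ± 0.43, adjusted p = 1.15e-05), 34.4-fold in Mut3 (5.10 ± 0.42, adjusted p = 1.39e-05), 5.28-fold in 005 (2.4 ± 0.38, adjusted p = 0.00189) and 3.66-fold in CT2A (1.87 ± 0.38, adjusted p = 0.00246). All 4 calls held when any library was left out. Mut3 thus had 259 ± 56.0 CPM of Gpnmb (SD, n = 3) where none of the 12 pan-myeloid markers was up, and which cells of the tumor held this RNA was not measured.

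Cst7 (chr2:150570415-150578944, + strand) encodes cystatin F, an inhibitor of lysosomal cathepsins. Naïve brain had 1.22, 1.49 and 1.35 CPM (6.3, 5.9 and 4.6 counts), CT2A 16.4, 18.6 and 17.4, GL261 62.6, 64.0 and 42.5, 005 25.3, 73.5 and 25.6, and Mut3 1.68, 5.03 and 11.4. On CPM every tumor was above every naïve brain. In TPM Mut3 replicate 1, at 0.516, was below all naïve brains (0.551 to 1.06). Cst7 rose 12.8-fold in CT2A (log2 3.68 ± 0.65, adjusted p = 0.0012), 41.2-fold in GL261 (5.36 ± 0.68, adjusted p = 0.000231), 30.3-fold in 005 (4.92 ± 0.67, adjusted p = 0.00177) and 4.46-fold in Mut3 (2.16 ± 0.64, adjusted p = 0.0153). The call in Mut3 was lost without naïve replicate 1 (2.08) or Mut3 replicate 3 (1.27).

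The study set GL261 and 005 against CT2A and Mut3 by their immune gene expression in the same RNA sequencing. Higher immune genes in GL261 and 005 were therefore partly built into this grouping, and the counts below are no independent support for it. In that comparison 8 of the 10 genes were higher in GL261 and 005, all but Gpnmb and Spp1, where 12.6% of all genes were. So were 11 of the 12 pan-myeloid markers. The log2 differences ran from 1.21 for Apoe and 1.42 for Lpl to 2.86 for Clec7a and 2.94 for Itgax. For Gpnmb the difference was 0.34 (interval −0.19 to 0.87) and for Spp1 0.41 (−0.56 to 1.37), and each was high in a line of either side. Lpl was low in CT2A alone: Mut3 differed from GL261 by −0.21 (−1.42 to 1.00) and from 005 by 0.19 (−1.01 to 1.40). The Lpl call was lost in 7 of 15 fits without 1 library, with differences of 1.02 to 1.96. These lacked CT2A replicate 2 or 3, GL261 replicate 2 or 3, 005 replicate 3, or Mut3 replicate 2 or 3. Mice of a line are not independent samples of such a class.

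Between single pairs of lines, which also tests whether their changes from naïve brain differed, Mut3 and 005 were furthest apart. Of the 10 genes, 9 were called between them, 8 lower in Mut3 and Gpnmb higher, where 19.8% of all genes were called. The log2 differences in Mut3 minus 005 were −4.29 for Clec7a, −4.16 for Itgax, −3.26 for Spp1, −2.76 for Cst7, −2.65 for Axl, −2.25 for Tyrobp, −1.95 for Trem2, −1.40 for Apoe and 2.70 for Gpnmb. Without 005 replicate 2 or Mut3 replicate 1 Trem2 was not called (−1.42 and −1.69), and a fit of the Mut3 and 005 samples alone called 4 of the 10 genes, Gpnmb, Clec7a, Itgax and Axl. Against GL261, 6 genes were lower in Mut3 (17.2% of all genes called), with differences of −3.21 for Cst7, −3.14 for Itgax, −2.48 for Axl, −2.36 for Tyrobp, −2.34 for Clec7a and −1.82 for Trem2. The Clec7a call was lost in 5 of 15 fits (−2.46 to −2.05), those without any GL261 library, Mut3 replicate 1 or Mut3 replicate 2. The Trem2 call was lost without GL261 replicate 2 (−1.65) or Mut3 replicate 1 (−1.62). Gpnmb differed by −0.16, with an interval of −0.90 to 0.59.

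Lpl was the 1 gene of the 10 called between CT2A and each of the other lines. Against CT2A, 4 genes were called in GL261 (7.77% of all genes): Gpnmb, Lpl and Apoe were higher by 3.39, 3.02 and 1.02, and Spp1 was lower at −2.45. The Apoe call was lost in 12 of 15 fits without 1 library (0.94 to 1.10) and the Spp1 call in 10 of 15 (−2.74 to −2.32), in both cases including every fit that lacked a CT2A or GL261 library. The Lpl call was lost without CT2A replicate 2 (2.71) or 3 (2.68). In 005, 4 genes were higher than in CT2A (4.11% of all genes): Clec7a by 3.38, Itgax by 2.75, Lpl by 2.62 and Apoe by 1.62. Without CT2A replicate 2 none of these 4 was called, at 3.74, 2.69, 2.23 and 1.48. A fit of the CT2A and 005 samples alone also called none of them, and 108 of all genes. The Lpl call was also lost without CT2A replicate 3 (2.27) or 005 replicate 3 (1.90). Those of Clec7a and Itgax were lost without CT2A replicate 1 (3.12 and 2.61), CT2A replicate 3 (3.32 and 2.91) or 005 replicate 2 (2.13 and 1.68), and that of Itgax without GL261 replicate 3 (2.73). Spp1 differed by 0.21 between 005 and CT2A, with a wide interval of −1.16 to 1.57. In Mut3, 4 genes differed from CT2A (12.8% of all genes), with Gpnmb higher by 3.23, Lpl higher by 2.81, Spp1 at −3.05 and Axl at −2.03. The Lpl call was lost without CT2A replicate 2 (2.38). Only Gpnmb, at −2.86, was called between 005 and GL261 (2.62% of all genes), where Spp1 was 2.66 higher in 005 at an adjusted p of 0.053 and, without 005 replicate 3, 3.20 higher at an adjusted p of 0.00033.

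To set each gene beside the amount of myeloid RNA, its log2 CPM was taken relative to the mean of the 12 pan-myeloid genes in the same sample. This is a description of ratios, with no test. The Tyrobp ratio differed from that of naïve brain by −0.04 (CT2A), 0.04 (GL261), −0.09 (005) and 0.12 (Mut3) on the log2 scale. It overlapped naïve brain in all 4, although relative to Csf1r and Aif1 alone it was 0.61 to 0.92 higher. The ratios of Trem2 and Axl overlapped those of naïve brain in all 4 tumors.

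Cst7 and Clec7a had higher ratios in each tumor than in any naïve brain. For Cst7 the ratio was 3.65-fold (CT2A), 6.32-fold (GL261), 4.51-fold (005) and 3.32-fold (Mut3) that of naïve brain, and it was also higher on log2(TPM + 1), by 1.21 to 1.91. For Clec7a it was 2.04-fold (CT2A), 3.19-fold (GL261), 9.53-fold (005) and 3.1-fold (Mut3). On log2(TPM + 1), where the pseudocount of 1 exceeds its mean level in naïve brain, CT2A and Mut3, the Clec7a ratio was −0.03 in CT2A and −0.04 in GL261. Itgax had a higher ratio in GL261 (2.47-fold) and 005 (4.24-fold), which turned to −0.88 and −0.45 on log2(TPM + 1). In all, 3 of the 10 genes had a higher ratio without overlap in CT2A (Spp1, Cst7 and Clec7a), 4 in GL261 (Gpnmb, Cst7, Clec7a and Itgax), 3 in 005 (Cst7, Clec7a and Itgax) and 3 in Mut3 (Gpnmb, Cst7 and Clec7a). Of all genes tested, 7.37% (CT2A), 3.5% (GL261), 1.44% (005) and 25.1% (Mut3) did. The count of 3 in Mut3 is near its share and is no result about the 10 genes.

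The ratio of Gpnmb was 36.8-fold that of naïve brain in Mut3 and 7.01-fold in GL261, and it overlapped naïve brain in CT2A and 005. On log2(TPM + 1) the log2 differences were 3.83 in place of 5.20 in Mut3 and 1.89 in place of 2.81 in GL261, and relative to Csf1r and Aif1 alone that in GL261 was 3.69. The Spp1 ratio was 7.18-fold in CT2A, where its 3 samples lay at 5.47, 5.49 and 5.52 on the log2 scale. In 005 the Spp1 ratio spread from 6.32 in replicate 1 to 2.36 in replicate 3. The ratios of Apoe and Lpl were lower in 3 of the tumors, as were those of most genes, relative to pan-myeloid genes that themselves rose there. The Apoe ratio was 0.215 (CT2A), 0.24 (GL261) and 0.382 (005) of that of naïve brain, and the Lpl ratio was 0.0269, 0.123 and 0.0952, all without overlap. Of all genes tested, 63.4% (CT2A), 78.8% (GL261) and 72.8% (005) had a lower ratio in every tumor than in every naïve brain, so that these are no results about Apoe and Lpl. Relative to Csf1r and Aif1 alone the log2 differences of Apoe were −1.28, −1.18 and −0.69 in place of −2.22, −2.06 and −1.39, and on log2(TPM + 1) that of Lpl in CT2A was −1.76 in place of −5.22.

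**Figure D4:**
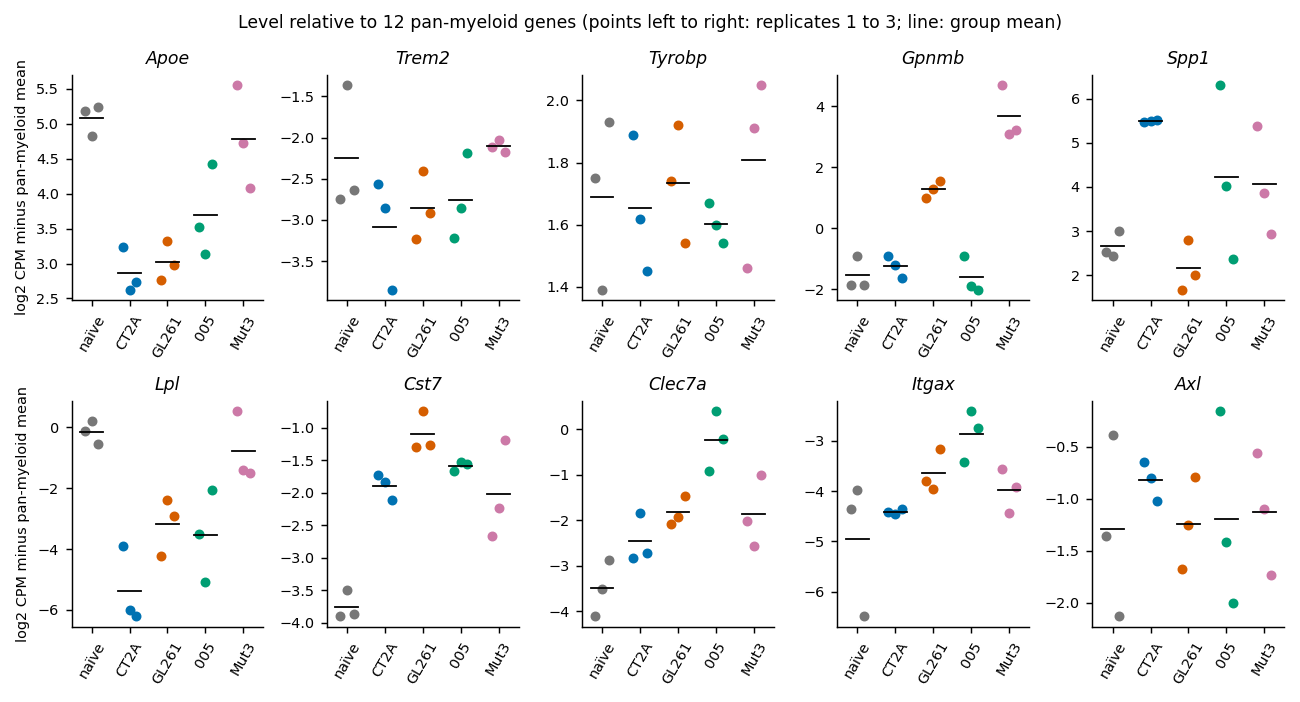
Log2 CPM of each gene minus the mean log2 CPM of 12 pan-myeloid genes in the same sample. Points are replicates 1 to 3 and lines group means. Tyrobp was nearly level across the 5 groups, Gpnmb was highest in Mut3, and Apoe and Lpl were lower in CT2A, GL261 and 005 than in naïve brain.

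Among 24 other genes of lipid-laden and activated microglia that were tested (25 were listed), 14 were up and 1 was down in CT2A, 15 up and 1 down in GL261, 17 up and 0 down in 005, and 6 up and 3 down in Mut3. The shares of all genes called up were 19% (CT2A), 14.6% (GL261), 11.6% (005) and 17.9% (Mut3). Those called down were 20.2%, 7.77%, 1.05% and 19.8%. The Mut3 counts are near these shares and are no result about the list. Lgals3, which encodes a lectin of damaged lysosomes, rose in all 4 tumors (log2 fold changes of 3.40, 4.78, 4.87 and 2.89 in CT2A, GL261, 005 and Mut3). The tetraspanins Cd9 and Cd63, the lipid droplet coat gene Plin2 (3.41, 3.31, 2.91 and 3.26) and the cholesterol transporter Npc2 did as well. The lysozyme gene Lyz2 was up in CT2A (2.24), GL261 (2.91) and 005 (4.88), and was 1.63 without a call in Mut3. Cd52 had the largest change in 005 (5.16), and Fabp5, a fatty acid binding protein, was called in no tumor (−0.17 to 0.80). The cathepsins Ctsb (1.55 and 1.47) and Ctsd (1.56 and 1.39) were up in GL261 and 005, and Ctsz also in CT2A (1.53, with 2.07 in GL261 and 2.00 in 005). Csf1 was up in the same 3 tumors (1.35 in GL261 and 1.88 in 005), and Igf1 in CT2A (3.27) and 005 (3.04). In Mut3 the genes that fell were Pld3 (−2.58), Cd83 (−1.77) and Timp2 (−1.12).

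Listed with the signaling of Trem2 and Clec7a were 12 genes, not all of which relay it (Adam10 and Adam17 encode proteases). Of these 12, 5 (CT2A), 6 (GL261), 8 (005) and 3 (Mut3) were up, and 1, the adaptor gene Blnk, was down in Mut3 (−1.25). Over all genes tested, 19%, 14.6%, 11.6% and 17.9% were called up in these lines, and 19.8% down in Mut3. The Mut3 counts are near these shares and are no result about the list. The same shares apply to the integrin and cathepsin counts below, where Mut3 likewise gives no result about a list. The kinase gene Syk was up in GL261 (2.38) and 005 (2.35) and was −0.02 in CT2A and −0.51 in Mut3, and the adaptor gene Hcst was up in the same lines (2.67 and 3.35), with 1.58 in CT2A (adjusted p = 0.0722 in edgeR) and −0.29 in Mut3. Plcg2 and the phosphatase Ptpn6 were up in all 4 tumors, in Mut3 by 2.27 and 2.22. Card9 was not called in any (−1.0 to −0.53). All 3 integrin genes that share the setting of Itgax, its partner Itgb2 (2.13 in CT2A, 3.02 in GL261 and 3.72 in 005), Itgam and Itgal, were up in these 3 lines, whereas in Mut3 Itgam fell by 1.56 (Itgam is also among the pan-myeloid markers). Of the 6 cathepsins and inhibitors listed with Cst7, 4 were up in CT2A, GL261 and 005 and 1, Ctsh, in Mut3 (1.45). They included Ctsc, which is a target of cystatin F (3.80, 3.91 and 4.72). The inhibitor Cst3 fell in CT2A (−1.58). Ctsl of this list was also counted above and Ctss is a pan-myeloid marker.

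Of 16 genes of lipoprotein handling, 2 (CT2A), 2 (GL261), 2 (005) and 4 (Mut3) were up, with 2, 2, 0 and 3 down. Read against the 19%, 14.6%, 11.6% and 17.9% of all genes called up, these counts are no result about the list, and its genes are described singly. Apoc2, the activator of lipoprotein lipase, rose in all 4 (4.06, 4.38, 4.93 and 3.09). Apoc1 rose in GL261 (3.23) and Mut3 (3.71), the lines with high Gpnmb, and not in CT2A (−0.13) or 005 (1.52, not called). It measured 43.2 to 211.8 CPM in Mut3, 59.0 to 106.1 in GL261 and at most 29.5 in every other sample. Gpihbp1, which holds Lpl on capillaries, was called up in CT2A (1.83 to 9.95 CPM) and Mut3 (1.32 to 11.1 CPM), against at most 0.747 CPM in naïve brain. The sterol exporter Abca1 rose in 005 (1.98), and Abcg1 fell in CT2A (−2.11) and Mut3 (−1.98). The receptor Lrp1 (−0.88 to −0.01), the lipase inhibitor Angptl4 (0.37 to 1.05) and the sterol sensor Nr1h3 (−0.33 to 2.15) were not called. Pparg was down in GL261 (at most 0.364 CPM) and Mut3 (at most 0.559 CPM) from a mean of 3.63 CPM in naïve brain. Among ligands of Axl and its related receptors, Pros1 rose in all 4 tumors (by 1.2, 2.31, 1.29 and 1.64). Gas6, the ligand named above for Axl, fell in CT2A (−2.35) and Mut3 (−2.21) and was called up in no tumor. The related receptor Tyro3 fell in CT2A (−3.14) and GL261 (−2.36), and Mertk was not called (−0.15 to 0.82). Of 6 receptors of osteopontin, Cd44 was up in all 4, by 4.88 in CT2A, 4.24 in 005, 3.21 in GL261 and 2.21 in Mut3, and so was Itgb1. Itgav was up in GL261 (1.13) and Itgb3 in none. Of the 3 tested genes of the MiT factors, which act on Gpnmb and lysosomal genes, Mitf was not called (−1.24 to 0.55). Tfec was called in CT2A, GL261 and 005. It was at 0 in the 3 naïve brains and reached 10.4 CPM in 005, 2.49 in GL261, 2.02 in CT2A and 2.29 in Mut3.

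Across the 15 samples 6 of the genes correlated with each other and 4 less so. Tyrobp and Cst7 had a Pearson's r of 0.94 (Spearman's rho 0.96), or 0.98 over the 12 tumors, and Clec7a and Itgax 0.91 (0.92), or 0.96 over the tumors. Trem2, Tyrobp, Cst7, Clec7a, Itgax and Axl correlated with each other at 0.76 or more, and Apoe, Gpnmb, Spp1 and Lpl had no r above 0.74 with any of the 10. Over the 12 tumors this division did not hold: Apoe had an r of 0.82 with Itgax, 0.78 with Clec7a and 0.77 with Trem2, and Axl 0.68 with Trem2 and 0.69 with Clec7a. Gpnmb had an r of 0.08 with Spp1 (rho 0.30), and over the tumors −0.67 (rho −0.36). Lpl and Spp1 had −0.73 (rho −0.72). These are descriptions, since samples of a group share their line and tissue makeup. Within the tumors Tyrobp had an r of 0.99 with the mean of the pan-myeloid markers and Cst7 0.96, whereas Gpnmb had −0.26 and Spp1 0.40. Clec7a and Itgax had an r of 0.96 and 0.98 with the T cell markers, and of 0.86 and 0.92 with the pan-myeloid ones. With the dendritic cell markers they had 0.91 and 0.93. The r with the T cell markers was also 0.90 for Trem2, 0.89 for Tyrobp and 0.91 for Cst7, and 0.75 for Axl. The T cell sum was highest in 005 replicate 2, at 294.9 CPM.

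**Figure D5:**
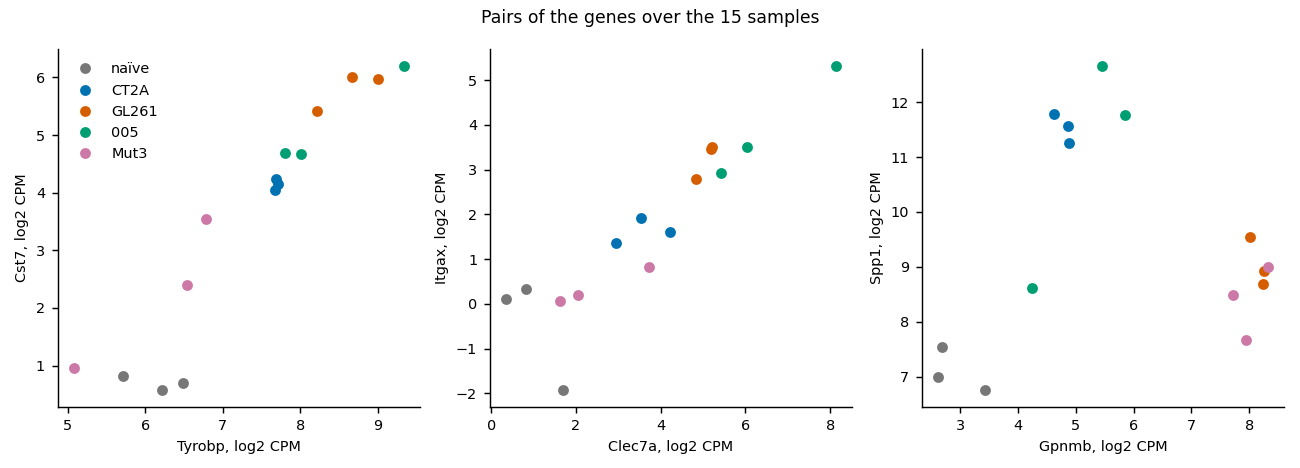
Log2 CPM (prior count 2) of pairs of the genes, with a point for each of 15 samples. Tyrobp and Cst7 rose together over the tumors, as did Clec7a and Itgax, whereas samples of high Gpnmb (GL261 and Mut3) were apart from those of high Spp1 (CT2A and 2 of the 3 005 tumors).

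Of all genes tested outside the 10, those most like each gene over the 15 samples by Pearson's r of log2 CPM were Ctsb and Ctss for Tyrobp (0.989 each), Ctsh and Gbp2 for Cst7 (0.984 and 0.977), Cd3d and Cxcl9 for Clec7a (0.982 and 0.971) and Tnfrsf4 and Il10ra for Itgax (0.963 and 0.958). They were Snx20 and Csf3r for Trem2 (0.932 and 0.929) and Itpripl2 and Gm26880 for Axl (0.964 and 0.949). For the other four they were Ash2l and Xlr3c for Gpnmb (0.972 and 0.945), Emp1 and S100a6 for Spp1 (0.968 and 0.949), Stox2 and Tsnax for Lpl (0.951 and 0.939) and Atp8b1 and Vdac2 for Apoe (0.881 and 0.853). The likeness was lowest for Apoe. Of the 4 genes with the AP-1 letters in the promoters shown above, Cst7, Trem2 and Itgax were among the 6 that correlated with each other. Gpnmb was not. Clec7a and Axl, also among the 6, had windows without these letters, and Tyrobp had no window. Whether the letters and the correlations go together was not tested.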

How the data were processed

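The authors aligned reads with STAR v2.4.2a against GENCODE's mouse genome, handled duplicates with Picard and took metrics with RNA-SeQC, and the submitters' processing notes name Salmon, DESeq2 1.18.1 and mm10. The authors deposited expected counts, not normalized, and TPM values. Count and TPM differed by a factor per gene times a factor per sample (4644 genes, largest log2 residual 9.6e-10), so they are not independent. Of 46679 identifiers, 46201 matched GENCODE M21. The counts were rounded, filtered with filterByExpr, scaled by TMM and tested with edgeR 4.0.16 in R 4.3.3 over all 15 samples, a mean per group. Intervals are 95%, and log2 CPM had a prior count of 2. Whether the counting used strand is not given in the sources used here. Alternatives were DESeq2 1.42.0, log2(TPM + 1) in limma 3.58.1, library size in place of TMM, other filters, fits of only the samples compared, a replicate block and each library left out. The steps were tested on simulated data. The 10 genes and the lists were chosen with earlier results of these data known. Named genes were the 10, fixed companions, the largest called changes of a list, and the 2 most alike genes. Genes that complete a count of 5 or fewer were chosen after their values were seen. Nothing states that mice of a group were from separate batches, so p-values measure the spread among these mice. Sequences are RefSeq's (GRCm38.p6). Some alleles of the lines and a gene of the lists are not reported here.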

Additional observations from a re-analysis of the deposited data

Results flagged for a closer look

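The change from naïve brain differed between lines, by the contrast of the 2 tumors in edgeR's quasi-likelihood test (adjusted p under 0.05 and at least 2-fold), for 28 pairs of gene and lines. All contrasts share the fit, and the log2 differences follow. For Mut3 minus 005 these were −4.29 (Clec7a), −4.16 (Itgax), −3.26 (Spp1), −2.76 (Cst7), −2.65 (Axl), −2.25 (Tyrobp), −1.95 (Trem2), −1.40 (Apoe) and 2.70 (Gpnmb). For Mut3 minus GL261 they were −3.21 (Cst7), −3.14 (Itgax), −2.48 (Axl), −2.36 (Tyrobp), −2.34 (Clec7a) and −1.82 (Trem2). For Mut3 minus CT2A they were 3.23 (Gpnmb), 2.81 (Lpl), −2.03 (Axl) and −3.05 (Spp1). For GL261 minus CT2A they were 3.39 (Gpnmb), 3.02 (Lpl), 1.02 (Apoe) and −2.45 (Spp1). For 005 minus CT2A they were 3.38 (Clec7a), 2.75 (Itgax), 2.62 (Lpl) and 1.62 (Apoe), and for 005 minus GL261 the value was −2.86 (Gpnmb). The group size of 3 is too small for a test of single samples.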

How the results depend on the processing

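With at least 10 counts in every sample, which removes Lpl, Cst7, Clec7a and Itgax, the numbers of the 10 genes called against naïve brain were 4 (CT2A), 5 (GL261), 5 (005) and 1 (Mut3). They were 1 for 005 against CT2A, 3 for Mut3 against GL261, 4 when GL261 and 005 were set against the other lines, and 6 over the 5 groups. On log2(TPM + 1) they were 4 for CT2A and 5 for GL261 against naïve brain, 2 for 005 against CT2A, 3 for Mut3 against GL261 and 5 for GL261 and 005 against the other lines. There the median of all genes moved from −0.04 to −0.38 in CT2A, −0.08 to −0.35 in GL261, 0.01 to −0.23 in 005 and 0.11 to −0.27 in Mut3. Fits of only the samples compared called 2 for 005 against naïve brain, 7 for GL261 and 0 for 005 against CT2A, and 4 for Mut3 against 005. Between 005 and GL261, 2 were called with library size in place of TMM, without a filter and by DESeq2. With 1 library left out, the numbers against naïve brain ranged from 6 to 8 (CT2A), 6 to 8 (GL261), 7 to 9 (005) and 1 to 3 (Mut3). Those against CT2A ranged from 1 to 5 (GL261), 0 to 4 (005) and 3 to 6 (Mut3), and those against GL261 from 1 to 2 (005) and 4 to 6 (Mut3).

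Signs turned on log2(TPM + 1) for Apoe in GL261 (−0.42), Trem2 in CT2A (−0.18), Tyrobp in Mut3 (−0.80), Itgax in Mut3 (−0.02) and Spp1 in 005 against CT2A (−0.13), none of them called. Trem2 in Mut3 was 0.02 without a filter and 0.03 by DESeq2, and −0.24 to 0.69 with 1 library left out. Those ranges were −0.21 to 0.52 for Tyrobp and −0.36 to 0.59 for Axl in Mut3, and −0.63 to 0.71 for Spp1 in 005 against CT2A. Replicate numbers come from the labels, belong to different mice and paired no samples: the correlation of same-numbered pairs was −0.331 to 0.262. With the replicate block 2 genes were called for GL261 and 2 for 005 against CT2A, Spp1 in 005 against CT2A was −0.05 and Trem2 in Mut3 0.05. Against naïve brain the block ended the calls of Itgax in CT2A (2.19) and Spp1 in GL261 (1.87).

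Of all genes, 6858 (CT2A), 3913 (GL261), 2217 (005) and 6601 (Mut3) were called against naïve brain, and 3956, 2517, 1206 and 3628 with at least 10 counts in every sample. DESeq2 called 3337 for 005, and without 005 replicate 3 there were 6535. Against CT2A, GL261 had 1358 (2353 with only the samples compared, 2134 by DESeq2, 765 on log2(TPM + 1)), 005 had 719 (108, 1774, 477 and, with the block, 393) and Mut3 2231 (1294 with 10 counts, 1132 on log2(TPM + 1)). Between 005 and GL261 there were 458 (194 with 10 counts, 148 with only the samples compared, 934 by DESeq2), between Mut3 and GL261 3015 (1531 with 10 counts, 1163 on log2(TPM + 1)), and between Mut3 and 005 3463 (1742, 925 and 1088). For GL261 and 005 against the other lines there were 2959 (1233 with 10 counts, 743 on log2(TPM + 1)). The causes were not tested. Counts were low for Itgax, Cst7 and Clec7a in naïve brain and for Lpl in CT2A, and fold changes that use them rest on few reads.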

Other observations

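The genes of the monocyte list did not move together in Mut3. Vcan, a matrix proteoglycan, measured 408.9 to 618.7 CPM and Plac8 61.2 to 551.7 CPM there, both called against naïve brain (5.93 and 5.99 on the log2 scale), whereas Ly6c2 (0.55) and Ccr2 (1.14) were not. The chitinase-like gene Chil3 was 0.792 to 1.26 CPM in Mut3, not called, and 2.17 to 66.0 CPM in CT2A, 36.9 to 64.2 in GL261 and 40.9 to 222.0 in 005, all 3 called, against at most 0.541 in naïve brain. Sall1, a transcription factor of microglia that was listed with the homeostatic genes, was 8.05 to 15.3 CPM in Mut3 (log2 change 0.38, not called), while 7 other genes of that list were down.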
